A study of Mus musculus with 3 samples.

Results

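Vomeronasal receptors are G protein-coupled receptors of the sensory neurons of the vomeronasal organ, which detects pheromones and other chemical signals in mice. The type 1 receptors, named Vmn1r, are typically encoded by a single coding exon and are carried by neurons that use the G protein subunit encoded by Gnai2. The type 2 receptors, named Vmn2r, have a long extracellular domain encoded over several exons and are carried by neurons that use the subunit encoded by Gnao1. Both families lie in clusters of recently duplicated, highly similar genes and pseudogenes.

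The members were all autosomal genes of the GENCODE M1 annotation of the mouse genome mm9 whose name begins with Vmn1r or Vmn2r. There were 435 of them among 34653 autosomal genes, namely 256 Vmn1r and 179 Vmn2r genes, and 2 further genes with these names outside the autosomes were left out. Protein-coding models made up 203 of the Vmn1r and 124 of the Vmn2r genes, and pseudogenes made up 53 and 52. The rule itself reads the gene name and no measured value.

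Genomic DNA of E14 mouse embryonic stem cells (an established cell line) was sequenced by 3 methods that turn a modified cytosine into a base read as T. The cells were grown on gelatin in medium with serum, LIF and the inhibitors PD0325901 and CHIR99021, with 1 culture condition for all libraries. In TAPSβ, 5-hydroxymethylcytosine (5hmC) is blocked with glucose before TET oxidation and borane reduction, so the reading is of 5-methylcytosine (5mC). In CAPS, 5hmC is oxidised chemically and then reduced with borane, and in PS the borane step alone reads 5-formylcytosine (5fC) and 5-carboxylcytosine (5caC). CAPS and TAPSβ also convert 5fC and 5caC, so a cytosine with either mark can be read as modified by all 3 methods. There was 1 library for each method and no replicate, so no difference below was tested between samples. The intervals given are 95% exact binomial intervals on reads, or intervals of a ratio on the log scale, and cover counting error only.

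The 3 libraries held between 377288829 and 511365019 base calls at CpG cytosines, with a median of 13 reads at a cytosine listed in TAPSβ and 9 in both CAPS and PS. The 1 kb upstream of 5 of 6 stem cell genes (Pou5f1, Nanog, Sox2, Zfp42 and Lin28a) had a TAPSβ level of at most 1.49%, while Esrrb had 52.4%. A level is the percentage of reads at a set of CpG cytosines that were read as modified. A cytosine is called listed where the library had an entry for it, and each strand of a CpG was counted as its own cytosine.

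The reference sequence of the 3 cytosines with the most modified PS reads in each family is shown first, since much of the PS signal described below lay at such positions. Each window holds 61 bases of mm9, is written 5′ to 3′ on the strand of the cytosine, and has the measured CpG in capitals.

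Vmn1r172, 1 kb upstream, chr7:24443268-24443328, plus strand: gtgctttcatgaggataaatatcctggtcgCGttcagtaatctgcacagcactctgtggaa
Vmn1r174, exon, chr7:24539442-24539502, plus strand: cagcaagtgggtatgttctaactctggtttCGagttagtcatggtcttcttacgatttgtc
Vmn1r-ps85, 1 kb upstream, chr7:24563286-24563346, minus strand: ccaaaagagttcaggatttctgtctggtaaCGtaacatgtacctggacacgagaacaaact
Vmn2r115, exon, chr17:23483299-23483359, minus strand: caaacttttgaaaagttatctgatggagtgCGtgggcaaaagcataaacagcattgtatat
Vmn2r44, intron, chr7:9752008-9752068, minus strand: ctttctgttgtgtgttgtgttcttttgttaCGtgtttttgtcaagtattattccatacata
Vmn2r114, intron, chr17:23434892-23434952, plus strand: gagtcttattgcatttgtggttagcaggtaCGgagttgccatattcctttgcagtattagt

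The cytosine in the Vmn2r115 exon was read as modified in 26 of 36 PS reads, in 26 of 45 CAPS reads and in 53 of 57 TAPSβ reads. The cytosine in the Vmn2r114 intron had 22 of 31 PS reads, 23 of 34 CAPS reads and 53 of 57 TAPSβ reads modified. On the opposite strand of the same CpGs, no read was modified in PS (0 of 34 and 0 of 29) or in CAPS (0 of 36 and 0 of 36). The 3 Vmn1r positions showed the same one-sided picture at a lower level, with 11 of 23, 11 of 24 and 10 of 20 PS reads modified and none of 20, 23 and 13 on the other strand. The Vmn2r44 position was the exception, with 24 of 37 PS reads modified on its strand and 11 of 34 on the opposite strand.

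A second pair of windows shows the other face of the families, positions with no read at all. These are the exonic cytosines without an entry in any library whose surrounding 101 bases occur most often in the reference genome.

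Vmn1r95, exon, chr7:20779836-20779896, plus strand: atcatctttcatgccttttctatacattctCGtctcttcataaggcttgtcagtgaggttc
Vmn2r36, exon, chr7:7840238-7840298, plus strand: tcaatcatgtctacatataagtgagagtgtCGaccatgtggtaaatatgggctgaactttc

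The 101 bases centred on the Vmn1r95 position occur 15 times in mm9, and those centred on the Vmn2r36 position occur 14 times. Reads that could not be placed with a mapping quality of at least 10 had been left out by the study before modified bases were called.

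The first question was how the families compare in 5mC. Both were largely methylated, with a pooled TAPSβ level over exons, introns and 1 kb upstream of 60.2% (59.8 to 60.6) in Vmn1r and 63.3% (63.2 to 63.5) in Vmn2r. The Vmn1r to Vmn2r ratio was 0.951 (0.945 to 0.958). The size of this difference depended on the genes counted. It was larger in protein-coding genes, with a ratio of 0.933 (0.926 to 0.939), and without the 2 gene clusters in which under 50% of cytosines were listed, with 0.929 (0.923 to 0.936), and smaller on the chromosomes that hold both families, with 0.980 (0.974 to 0.987). Vmn1r90, Vmn1r112 and Vmn1r139 span 92.4, 200.7 and 28.9 kb where the median Vmn1r gene spans 0.927 kb, and they leave 254 of 3370 intronic cytosines to the rest of the family. Vmn1r90 alone supplied 14647 of the 64930 TAPSβ reads of the family, at a level of 49.1%. Without these 3 genes, which like the low clusters were left out after the values were seen, the Vmn1r level was 63.5% and the ratio 1.00 (0.996 to 1.01). The median over genes with at least 50 reads in each library was likewise close, at 63.1% over 191 Vmn1r genes and 62.2% over 160 Vmn2r genes, with interquartile ranges of 57.4 to 70.2% and 53.4 to 68.5%.

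By part of the gene, the TAPSβ level in exons was 60.4% in Vmn1r and 62.6% in Vmn2r. In introns it was 62.5% and 63.7%, and in the 1 kb upstream it was 58.2% and 58.1%. Single genes with low values, described below, weighed on these pooled upstream levels. The upstream medians over genes with at least 20 TAPSβ reads there were 63.6 and 62.1%. The odorant receptor genes (Olfr, 1243 autosomal genes), a larger receptor family that also lies in clusters, had 68.0% in exons, 63.9% in introns and 63.9% upstream. All other autosomal genes together had 37.5% in exons, 58.4% in introns and 17.9% upstream. The members thus had no upstream drop like that of genes as a whole.

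**Figure D1:**
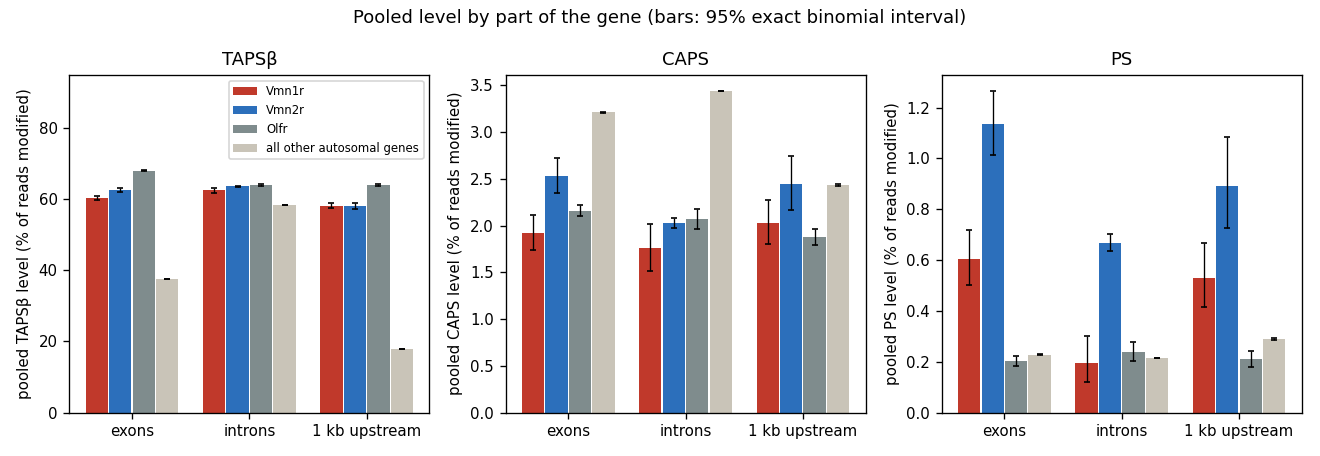
Pooled level (percentage of reads modified, vertical axis) in exons, introns and 1 kb upstream for Vmn1r, Vmn2r, Olfr and all other autosomal genes in TAPSβ, CAPS and PS, with 95% exact binomial intervals as error bars. Upstream, Vmn1r and Vmn2r have TAPSβ levels of 58.2 and 58.1% (medians over genes 63.6 and 62.1%) and Olfr 63.9%, where other genes have 17.9%. Vmn2r stands highest in PS in all 3 parts, with 1.13% in exons.

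The profile around the annotated start showed the same contrast in 500-base bins. Reads were pooled over genes in each bin, so genes with many reads weighed more. In the 500 bases before the start the TAPSβ level was 56.3% in Vmn1r, 56.1% in Vmn2r and 65.0% in Olfr, and 6.59% in other protein-coding genes. The sequence differed as well, with 4.14 CpGs per kb in Vmn1r and 3.90 in Vmn2r in that bin against 38.1 in other protein-coding genes. In the preceding bin, 500 to 1000 bases before the start, the vomeronasal families had 60.3 and 60.4%, Olfr 62.8% and other protein-coding genes 23.4%. In the annotation 236 of 256 Vmn1r genes have a single exon, so the annotated start may be the start of the coding sequence and not of the transcript.

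**Figure D2:**
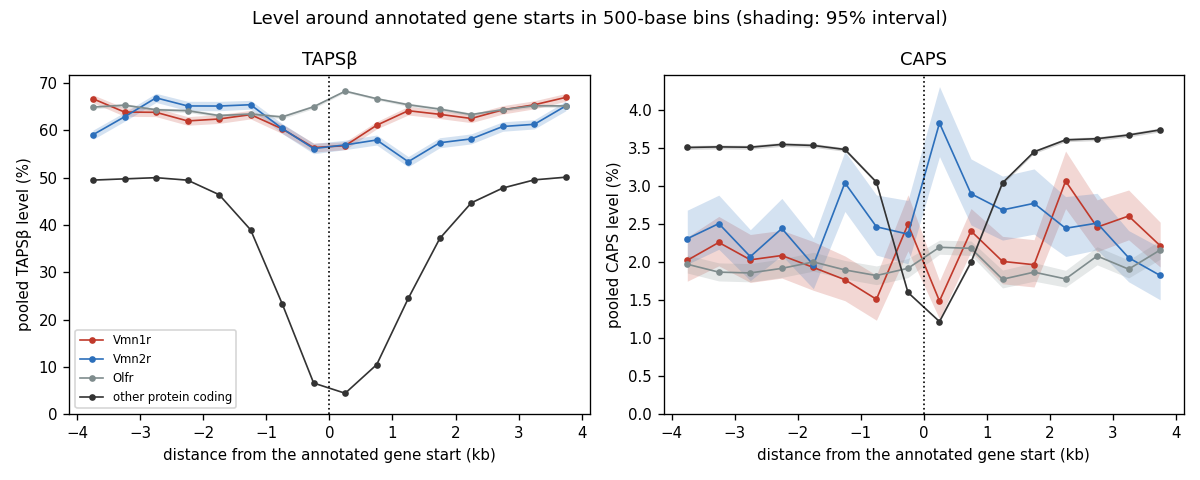
Pooled TAPSβ level (left) and CAPS level (right), in percent of reads, against distance from the annotated gene start in kb, in 500-base bins for Vmn1r, Vmn2r, Olfr and other protein-coding genes, with 95% intervals shaded. Other protein-coding genes fall to 4.44% TAPSβ in the first 500 bases of the gene, where Vmn1r has 56.7% and Vmn2r 56.9%.

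The 300 bases before Vmn2r26, a receptor known for its response to peptides bound by MHC class I molecules, illustrate how few CpGs there are to methylate. The CpGs are in capitals. This window lies just upstream of the annotated start in mm9.

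Vmn2r26, chr6:123974476-123974775, plus strand: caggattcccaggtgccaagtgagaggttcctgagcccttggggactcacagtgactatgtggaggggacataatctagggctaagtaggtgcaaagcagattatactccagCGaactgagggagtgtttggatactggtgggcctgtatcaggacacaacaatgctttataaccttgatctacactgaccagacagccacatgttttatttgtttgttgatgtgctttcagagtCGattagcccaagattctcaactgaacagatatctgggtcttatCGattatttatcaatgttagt

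Its 3 CpGs had 60 of 102 TAPSβ reads, 1 of 71 CAPS reads and 0 of 53 PS reads modified. The same 300 bases before Vmn2r116, the receptor of the male pheromone ESP1, and before Vmn1r85, a receptor known for sulphated steroids, held no CpG.

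Upstream regions were methylated in nearly every member with data. Among 186 Vmn1r genes with at least 20 TAPSβ reads in the 1 kb upstream the median level was 63.6%, and among 141 Vmn2r genes it was 62.1%. A level under 20% was found in 2 Vmn1r genes and 1 Vmn2r gene. Vmn1r10 had 0 of 20 reads modified, and Vmn1r90 had 6 of 1351, a level of 0.444%. The upstream region of the pseudogene Vmn2r-ps19 had 19.3% and lies within the annotated spans of the long noncoding RNAs Gm16889 and Gm17317. Vmn1r90 and Vmn2r-ps19 lowered the pooled upstream levels given above. The reads of Vmn1r90 stood among 20022 upstream TAPSβ reads of Vmn1r. Vmn2r-ps19 had 261 of 1354 reads modified, among 16198 in Vmn2r. These genes were picked out for their low value.

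Among genes with at least 50 reads in each library, Vmn1r88 on chromosome 7 had the highest TAPSβ level of the Vmn1r family, 84.3% (81.0 to 87.3), followed by Vmn1r79 with 81.3% and Vmn1r209 with 81.1%. The lowest Vmn1r levels were those of Vmn1r16 with 29.0% (18.2 to 42.0), Vmn1r5 with 34.3% and Vmn1r234 with 37.5%. Vmn1r16 and Vmn1r5 had 6 CpG cytosines each, so few positions stand behind their values. In the Vmn2r family Vmn2r-ps5 had the highest level with 82.4%, followed by Vmn2r87 with 79.3% and Vmn2r-ps111 with 78.0%. The lowest Vmn2r levels were those of Vmn2r-ps19 with 15.7% (14.1 to 17.4), Vmn2r34 with 32.5% and Vmn2r41 with 39.7%. Vmn2r-ps19 was unlike the rest in composition, since it had 122 CpG cytosines over a gene of 0.559 kb and its upstream 1 kb.

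The family C receptors Vmn2r1 to Vmn2r7, which are co-expressed with other Vmn2r receptors in the same neurons, lie together on chromosome 3. Their TAPSβ levels were 75.6, 71.01, 61.1, 77.6, 71.2, 73.0 and 70.9% in that order. Vmn2r3 had the lowest TAPSβ level of these 7 genes and the highest CAPS level, 3.79% (3.05 to 4.64), against 0.947 to 1.93% in the other 6. Nearly every CpG cytosine of these genes was listed in TAPSβ (94.4 to 100%), and their PS levels were at most 0.381%. Vmn2r26 had 71.5% in TAPSβ, 2.35% in CAPS and 0.152% in PS. Vmn1r85 had 66.5, 2.62 and 0.457%, and Vmn1r89, also known for sulphated steroids, had 69.4, 0.676 and 0% in the same order.

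The second question was 5hmC. The pooled CAPS level was 1.91% (1.79 to 2.04) in Vmn1r and 2.09% (2.04 to 2.15) in Vmn2r, a ratio of 0.913 (0.851 to 0.979). Olfr genes had 2.07% and all other autosomal genes had 3.36%. In exons the levels were 1.92% and 2.53%, in introns 1.75% and 2.03%, and upstream 2.03% and 2.44%, with Vmn1r lower each time. Vmn2r-ps19 alone supplied 40 of the 276 modified CAPS reads upstream of Vmn2r genes. The pooled ratio did not stay below 1 when cytosines with over 26 TAPSβ reads, that is more than 2 times the median of 13, were left out. At the remaining cytosines Vmn1r had 1.86% (1.74 to 1.99) and Vmn2r 1.81% (1.76 to 1.87), a ratio of 1.02 (0.952 to 1.10). By part Vmn1r was still the lower, within overlapping intervals, with 1.856 against 1.961% in exons, 1.777 against 1.784% in introns and 1.929 against 2.137% upstream.

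Among genes with at least 50 reads in each library the CAPS level ran from 0 to 12.8% in Vmn1r and from 0 to 13.04% in Vmn2r, with medians of 1.46% and 1.62%. The highest Vmn1r values were in Vmn1r8 with 29 of 226 reads (12.8%), Vmn1r210 with 11 of 95 reads (11.6%) and Vmn1r176 with 22 of 228 reads (9.65%). PS was high with CAPS in Vmn1r8 (15 of 214 reads) but not in Vmn1r210, where 0 of 102 PS reads were modified. Allowing 3 modified reads for this 0, the level could be up to 2.94%, which is not an exact interval. The highest Vmn2r values were in Vmn2r-ps100 with 13.04%, Vmn2r88 with 10.47% and Vmn2r115 with 7.59%. Few reads stand behind the first, since its whole cluster on chromosome 13 had 16 of 362 CAPS reads modified. Vmn2r88 and Vmn2r115 also had high PS levels, given below, so their CAPS level cannot be read as 5hmC alone. Across genes PS and CAPS levels went together, with a Pearson r of 0.672 over 191 Vmn1r genes and 0.726 over 160 Vmn2r genes and a Spearman rho of 0.348 and 0.488. Genes of a cluster share sequence and both levels carry counting error at low read numbers, so these values are descriptions.

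The third question was the PS reading of 5fC and 5caC, where the pooled ratio of the families was farthest from 1. The pooled PS level was 0.488% (0.425 to 0.557) in Vmn1r, from 218 modified reads, and 0.724% (0.692 to 0.756) in Vmn2r, from 1972 modified reads. The ratio was 0.674 (0.586 to 0.775). Olfr genes had 0.211% (0.196 to 0.227) and all other autosomal genes 0.219%, so that the Vmn2r level was above the interval of either. Both of these comparison levels lay below 0.27%, the false-positive rate of PS on unmodified DNA. PS levels at or below this rate, here and further on, cannot be told apart from background. The difference between the vomeronasal families was seen in exons (0.603% against 1.13%), in introns (0.196% against 0.668%) and upstream (0.530% against 0.892%). Without cytosines over 26 TAPSβ reads Vmn1r remained lower in introns, 0.189% (0.114 to 0.294) against 0.399% (0.373 to 0.426), and upstream, 0.444% (0.338 to 0.574) against 0.793% (0.630 to 0.985), but not in exons, 0.510% (0.416 to 0.619) against 0.498% (0.413 to 0.595). The Vmn1r intron value rested on 19 modified reads, mostly from Vmn1r90, Vmn1r112 and Vmn1r139. At any coverage, introns of the other Vmn1r genes had 2 of 2550 PS reads modified. Of Vmn1r intronic cytosines 36.4% were listed in TAPSβ, against 81.1% in Vmn2r. Upstream, Vmn2r-ps19 alone held 28 of the 101 modified PS reads of Vmn2r at any coverage.

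This PS signal sat on few cytosines. In Vmn1r 121 of 7998 CpG cytosines had any modified PS read and 21 of them held 50% of the modified reads, and in Vmn2r 784 of 34692 had any and 101 held 50%. In Olfr 617 of 38177 had any and 240 held 50%, so a small share of cytosines with a modified PS read was not particular to the members. The median PS level over genes with at least 50 reads in each library was 0 in Vmn1r, where 126 of 191 genes had no modified PS read. In Vmn2r it was 0.194%, and 27 of 160 genes had none. These counts depend on gene size, since the median Vmn1r gene had 16 CpG cytosines and the median Vmn2r gene 132. With fewer reads a count of 0 is more likely at the same level. A level of at least 2% was reached by 15 Vmn1r and 24 Vmn2r genes, and other genes were not counted in this way.

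The highest PS levels in Vmn1r were those of Vmn1r8 with 7.01% (3.98 to 11.3), Vmn1r172 with 6.08% and Vmn1r119 with 5.41%. In Vmn2r they were those of Vmn2r89 with 7.90% (6.27 to 9.79), Vmn2r88 with 7.84% (6.11 to 9.86) and Vmn2r-ps41 with 7.08%. Neighbours could differ sharply. Vmn2r114 had 117 of 1878 PS reads modified (6.23%) and Vmn2r115 had 90 of 1385 (6.50%), whereas the adjacent Vmn2r116 had 0 of 1200. Allowing 3 modified reads for this 0, the level could be up to 0.25%, which is not an exact interval. The exons of Vmn2r115 were 95.9% identical to those of Vmn2r114, those of Vmn2r114 96.6% to Vmn2r117, and those of Vmn2r116 93.5% to Vmn2r111.

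The PS level varied between the clusters of genes, taken as runs of at least 4 members without a gap over 1 Mb. In Vmn2r the 4 genes from Vmn2r-ps110 to Vmn2r89 on chromosome 14 had 6.08% (5.15 to 7.13), the 8 genes from Vmn2r111 to Vmn2r117 on chromosome 17 had 2.98% (2.70 to 3.27), and the 37 genes from Vmn2r29 to Vmn2r52 on chromosome 7 had 2.49% (2.31 to 2.67). These 3 clusters held 7.20, 21.04 and 36.7% of the modified PS reads of the family. Cytosines with over 26 TAPSβ reads carried 72.5, 73.3 and 55.2% of the modified PS reads of these 3 clusters, and without them the levels were 2.701% (1.93 to 3.67), 1.24% (1.02 to 1.49) and 1.83% (1.64 to 2.04). At the low end the 4 genes from Vmn2r80 to Vmn2r83 on chromosome 10 had 0.109% (0.0611 to 0.180) and the 9 genes from Vmn2r19 to Vmn2r27 on chromosome 6 had 0.137% (0.0913 to 0.199). Both lay below the false-positive rate of PS given above. In Vmn1r the 79 genes from Vmn1r91 to Vmn1r183 on chromosome 7 had 1.88% (1.51 to 2.304) and held 41.3% of the modified PS reads of the family, with 1.42% (1.07 to 1.85) where cytosines over 26 TAPSβ reads were left out, while the other 7 clusters had between 0.110 and 0.773%.

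**Figure D3:**
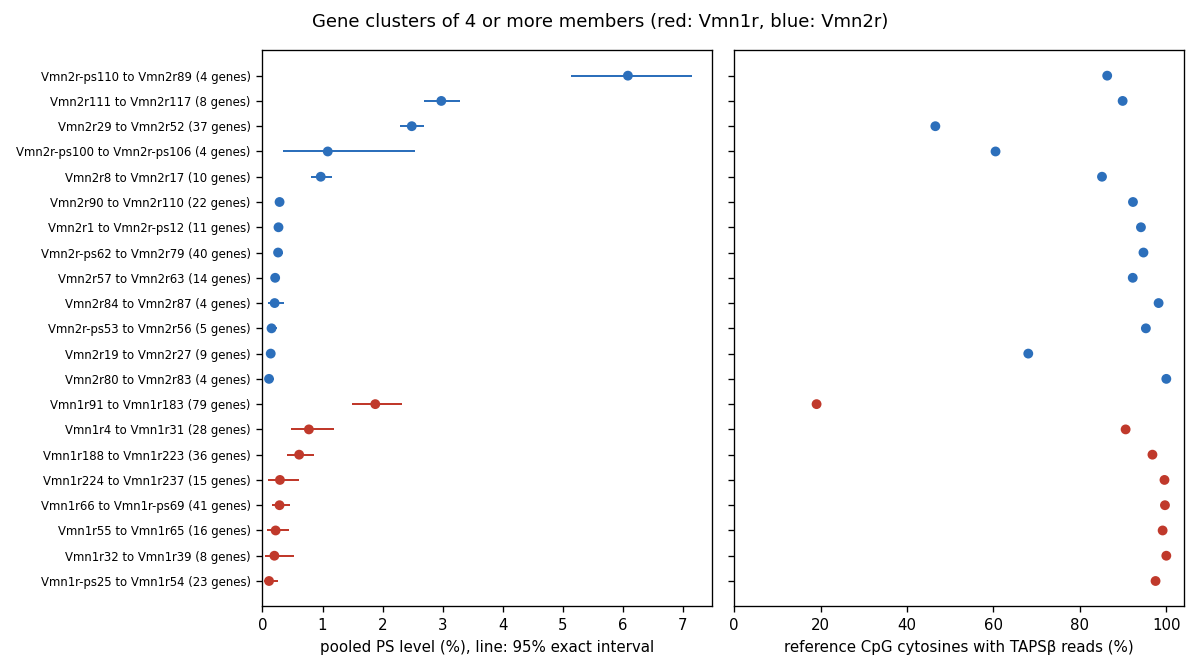
Gene clusters of at least 4 members, with Vmn1r in red and Vmn2r in blue, showing the pooled PS level in percent with its 95% exact interval (left) and the percentage of reference CpG cytosines listed in TAPSβ (right). The cluster from Vmn1r91 to Vmn1r183 has 1.88% PS and 19.1% of its cytosines listed, and the cluster from Vmn2r29 to Vmn2r52 has 2.49% and 46.6%, while those from Vmn2r-ps110 and from Vmn2r111 have 6.08 and 2.98% with 86.3 and 89.9% listed. All cytosines are plotted, and without those over 26 TAPSβ reads these last 2 clusters have 2.701 and 1.24% PS.

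Coverage was the fourth measure. Of 7998 Vmn1r CpG cytosines 60.95% were listed in TAPSβ, of 34692 Vmn2r cytosines 81.7%, and of Olfr cytosines and of those of all other autosomal genes 95.7% each. Counted over every CpG cytosine of the reference, coverage was 8.12 TAPSβ reads in Vmn1r and 11.1 in Vmn2r, a ratio of 0.731 (0.725 to 0.737). The deficit lay in missing positions, since listed cytosines had 13.3 and 13.6 reads, a ratio of 0.980. Without Vmn1r90, Vmn1r112 and Vmn1r139 the first ratio was 1.00 (0.991 to 1.01), and without the 2 clusters in which under 50% of cytosines were listed it was 1.13 (1.12 to 1.14), both chosen after the values were seen. The median over genes with at least 50 reads in each library was higher in Vmn1r, 14.75 against 13.4 reads per cytosine.

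No TAPSβ read was present over 28 Vmn1r and 6 Vmn2r genes, 1 of which has no CpG, and 27 and 5 of these had no read in any library. Of the 28 Vmn1r genes 27 belonged to the cluster from Vmn1r91 to Vmn1r183 on chromosome 7, among them Vmn1r93, and the other was Vmn1r188 on chromosome 13. In Vmn2r they included Vmn2r21 on chromosome 6, with 488 CpG cytosines, and the pseudogene Vmn2r-ps40 on chromosome 7. At the other end were Vmn1r235 with 30.4 TAPSβ reads per cytosine, Vmn1r174 with 29.9 and Vmn1r-ps85 with 25.9, and Vmn2r44 with 32.2, Vmn2r-ps79 with 30 and Vmn2r112 with 28.7.

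The share listed differed with how often the local sequence occurs in the reference. A window of 101 bases around the cytosine occurred more than 1 time in mm9 for 42.9% of Vmn1r, 29.0% of Vmn2r and 7.50% of Olfr cytosines. Of these repeated positions 15.8% were listed in Vmn1r, 47.3% in Vmn2r and 67.3% in Olfr. Where the window occurred a single time the listed shares were 94.9, 95.8 and 98.0%. Among the cytosines not listed in TAPSβ 92.5% in Vmn1r and 83.7% in Vmn2r had a repeated window.

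Exon similarity between genes gave the same order. Of 51 Vmn1r genes whose exons were at least 99% identical to another member 26 had no TAPSβ read, and their median share of listed cytosines was 10%. In the 61 genes at 90 to 95% identity the median share was 100% and 1 had no read. In Vmn2r the median share was 65.2% in 35 genes at 99% or more and 97.8% in 51 genes at 90 to 95%. Across genes the Spearman rho of identity with the listed share was -0.672 over 227 Vmn1r genes (Pearson r -0.547) and -0.496 over 166 Vmn2r genes (Pearson r -0.379). With the PS level over genes with at least 50 reads in each library, rho was 0.290 in 165 Vmn1r genes and 0.411 in 148 Vmn2r genes, and the pooled PS level of Vmn1r genes at 97 to 99% identity was 2.12% (1.70 to 2.60) against 0.264% (0.173 to 0.387) at 90 to 95%. The other classes differed less and did not rise in order. Vmn1r had 1.41% (0.887 to 2.13) at 99% or more, and Vmn2r had 0.521% at 90 to 95%, 0.905% at 95 to 97%, 0.755% at 97 to 99% and 1.04% at 99% or more.

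**Figure D4:**
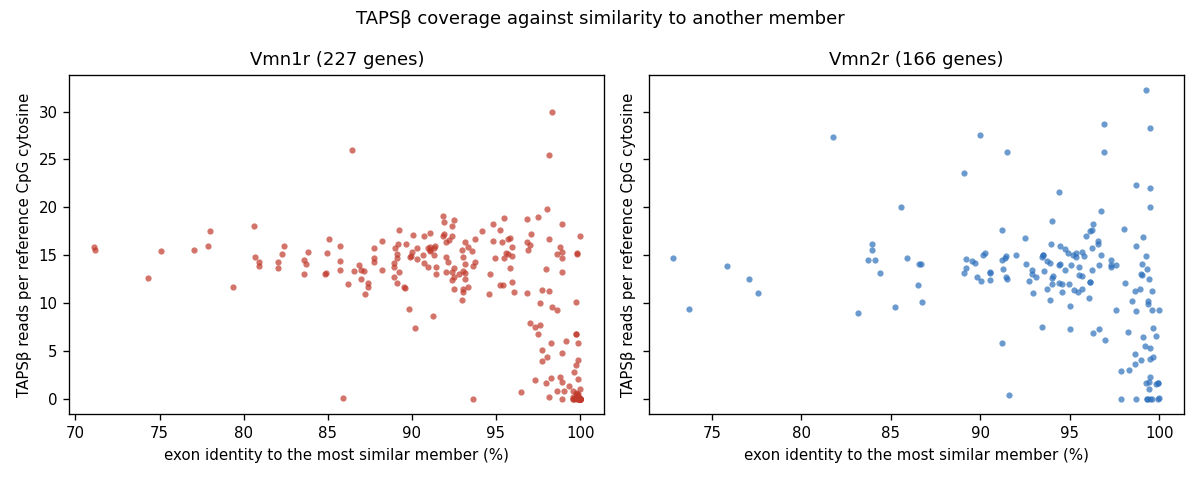
TAPSβ reads per reference CpG cytosine (vertical axis) against the exon identity of a gene to its most similar member in percent (horizontal axis), with 1 point for each of 227 Vmn1r and 166 Vmn2r genes that had an alignment over at least 50% of the exon sequence. The median lies between 13.5 and 15.2 reads in the classes of 90 to 97% identity and falls to 0 in Vmn1r and 6.49 in Vmn2r at 99% or more, where single genes range from 0 to 32.2.

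How much of the PS and CAPS signal sat at cytosines with over 26 TAPSβ reads differed between the families, and so did the share of all reads there. In Vmn2r 976 cytosines (2.81%) passed this limit and held 7.73% of the PS reads, but 45.9% (43.7 to 48.2) of the modified PS reads, 906 of 1972. They held 20.3% (19.3 to 21.4) of the modified CAPS reads, 1213 of 5969, from 8.01% of the CAPS reads. In Vmn1r 85 cytosines (1.06%) passed it and held 3.51% of the PS reads and 17.9% (13.04 to 23.6) of the modified PS reads, 39 of 218. Their share of the modified CAPS reads was 6.67% (5.12 to 8.53), 59 of 884, from 4.01% of the CAPS reads. The Vmn1r values rested on the cluster from Vmn1r91 to Vmn1r183. Without the clusters listed at under 50%, 1 in each family, the shares in Vmn1r were 2.34% for PS (3 of 128) and 1.12% for CAPS, and those in Vmn2r were 40.6 and 13.8%. In all other autosomal genes the same limit took in 0.626% of cytosines, 9.14% of the modified PS reads and 1.41% of the modified CAPS reads, and in Olfr it took in 0.474, 15.5 and 2.37%. These cytosines held 1.06% of the PS reads and 1.08% of the CAPS reads in the other genes, and 0.732 and 0.761% in Olfr. A share of modified PS reads above the share of all PS reads was thus not particular to the members.

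The highest shares were in Vmn2r exons, where 5.26% of cytosines passed the limit and held 61.5% (55.9 to 66.96) of the modified PS reads and 32.4% of the modified CAPS reads. In Vmn2r introns the shares were 44.5 and 18.5%, and upstream they were 19.8 and 22.5%.

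The level itself was higher at these positions. The PS level was 4.30% (4.03 to 4.59) at Vmn2r cytosines with over 26 TAPSβ reads and 0.424% (0.399 to 0.450) at the rest, and the CAPS level was 5.31% and 1.81%. In Vmn1r the PS level was 2.49% (1.78 to 3.39) and 0.415% (0.357 to 0.481), and the CAPS level 3.18% (2.43 to 4.09) and 1.86%. Other genes showed the rise too. Olfr had 4.47% (3.71 to 5.34) and 0.180% in PS, and 6.47 and 2.04% in CAPS. All other autosomal genes had 1.88 and 0.201% in PS, and 4.37 and 3.35% in CAPS. The TAPSβ level went the other way in Vmn2r, 53.3% against 64.3%, and was 59.7% against 60.2% in Vmn1r. Both methods end in a borane reduction, but with different reagents and conditions and with false-positive rates, as used for the calls below, of 0.72% for CAPS and 0.27% for PS. The CAPS level minus the PS level therefore holds a difference in background as well. It was 1.01 percentage points (0.611 to 1.41) at the high-coverage cytosines of Vmn2r and 1.39 (1.33 to 1.45) at the rest, and 0.694 (-0.418 to 1.81) and 1.44 (1.30 to 1.58) in Vmn1r. Over all cytosines it was 1.42 points (1.28 to 1.56) in Vmn1r and 1.37 (1.31 to 1.43) in Vmn2r, against 1.86 in Olfr and 3.14 in all other autosomal genes.

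At or below the limit the PS intervals of the families overlapped when all parts of the genes were pooled, with a ratio of 0.979 (0.836 to 1.15), although those for introns and for upstream regions, given above, did not. Exons hold 2707 of the 7998 Vmn1r and 3059 of the 34692 Vmn2r cytosines. Both pooled levels lay above Olfr (0.180%, 0.166 to 0.194) and all other autosomal genes (0.201%). Over single cytosines PS varied with coverage in both directions. It was lowest at 11 to 16 TAPSβ reads, with 0.254 and 0.246% in the 2 bins of Vmn2r and 0.260 and 0.265% in those of Vmn1r. At 21 to 26 reads it was 0.960% in Vmn2r and 1.03% in Vmn1r, and at 27 to 39 reads 4.35 and 2.64%. At 1 to 6 reads it was 0.528 and 0.765%. Over whole genes no such relation was seen by rank, since the Spearman rho of TAPSβ reads per cytosine with the PS level was -0.010 over 191 Vmn1r genes (Pearson r -0.0057) and 0.00095 over 160 Vmn2r genes (Pearson r 0.239).

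**Figure D5:**
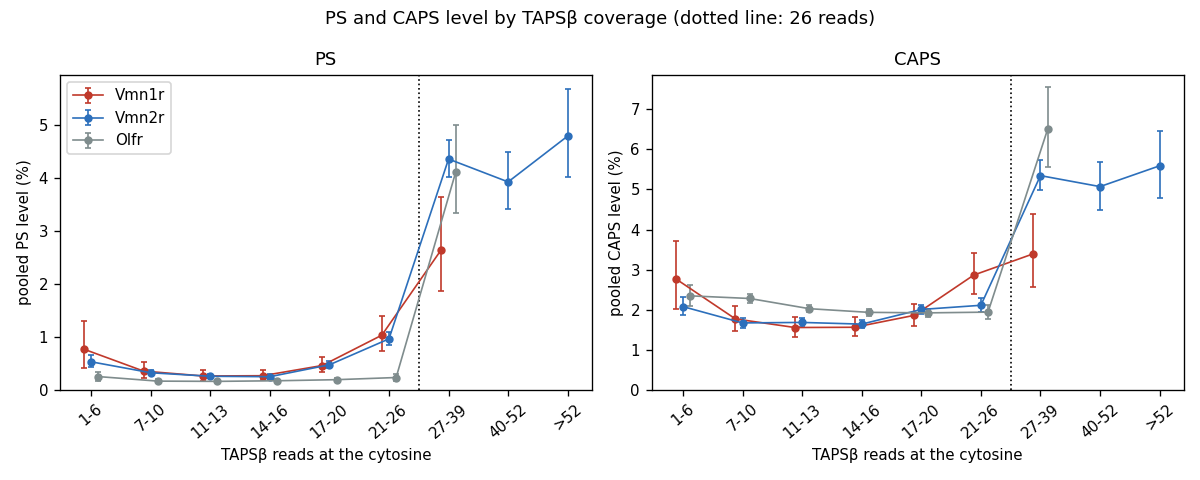
Pooled PS level (left) and CAPS level (right) in percent against the number of TAPSβ reads at the cytosine, for Vmn1r, Vmn2r and Olfr in bins with at least 20 cytosines, with 95% exact intervals. Both levels rise past the dotted line at 26 reads, where PS reaches 4.35% in Vmn2r, 2.64% in Vmn1r and 4.10% in Olfr at 27 to 39 reads.

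The limit was set on TAPSβ reads, and the other libraries, which it did not use, were deep at the same places. Vmn2r cytosines with over 26 TAPSβ reads had a mean of 23.4 CAPS and 21.6 PS reads, 2.43 and 2.37 times that of the listed rest. In Vmn1r the factors were 2.31 and 2.06, and in Olfr they were 1.54 and 1.48. A repeated 101-base window was found at 24.8% of the Vmn2r cytosines over the limit and at 16.5% of the other listed Vmn2r cytosines, and at 11.8% and 11.1% in Vmn1r. With 31-base windows the shares were 51.6 and 40.2% in Vmn2r and 24.7 and 31.1% in Vmn1r. In the members PS was higher at repeated 101-base windows, 1.64% (1.51 to 1.78) against 0.590% (0.559 to 0.621) in Vmn2r and 1.41% (1.03 to 1.89) against 0.417% (0.357 to 0.484) in Vmn1r. Olfr showed no such difference, with 0.216% (0.144 to 0.312) against 0.211% (0.196 to 0.227). At cytosines with a single window and at most 26 TAPSβ reads PS was 0.322% (0.299 to 0.347) in Vmn2r and 0.344% (0.289 to 0.406) in Vmn1r, against 0.178% (0.164 to 0.193) in Olfr.

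Much of the PS signal came from cytosines at which a large part of the reads was modified. A PS level of at least 20% at 5 or more PS reads was found at 193 of 25021 Vmn2r cytosines (0.771%) and 26 of 4203 Vmn1r cytosines (0.619%), against 35 of 34471 Olfr cytosines (0.102%). They held 63.3% of the modified PS reads of Vmn2r and 50.9% of those of Vmn1r, and 74 of the 193 and 3 of the 26 had over 26 TAPSβ reads. Since they were chosen by PS itself, a lower PS level without them follows from the choice. Without them it was 0.269% (0.250 to 0.289) in Vmn2r and 0.241% (0.198 to 0.291) in Vmn1r, where other genes treated alike had 0.182%. These levels lay below the false-positive rate of 0.27%.

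Pooled over reads, these positions had similar PS and CAPS levels, but single positions varied. Pooled over the 193 Vmn2r positions the PS level was 40.1% and the CAPS level, which did not enter their choice, was 37.8%, and over the 26 Vmn1r positions they were 35.9 and 34.2%. Over the 35 Olfr positions they were 37.3 and 32.4%, so that similar levels were not particular to the members. The median PS level was 37.0% in Vmn2r (173 positions with at least 5 CAPS reads) and 31.7% in Vmn1r (24 positions), and a CAPS level of at least 20% was found at 132 of the 173 and 16 of the 24, and of 0 at 10 and 6. A single modified PS read stood behind 10 of the 193 Vmn2r and 8 of the 26 Vmn1r positions. Among positions with at least 5 CAPS reads, a PS level of 80% or more was found at 1 of 173 in Vmn2r and none of 24 in Vmn1r. On the opposite strand of the CpGs of all 193 and 26 positions the PS level was 3.58% in Vmn2r and 4.39% in Vmn1r, the CAPS level 4.28 and 4.27%, and the TAPSβ level 37.2 and 50.8%, where it was 71.9 and 75.4% on the strand of the position. Olfr positions had 0.379% in PS and 2.19% in CAPS on the opposite strand. A T in the DNA itself is counted as modified by all 3 methods. The 101-base window with T in place of the cytosine occurs elsewhere in the reference for 15 of the 193 Vmn2r positions (7.77%) and 2 of the 26 Vmn1r positions (7.69%), against 3.70 and 1.25% of the other cytosines with at least 5 PS reads. Whether reads at these positions came from another copy, or the cells differ from the reference there, was not tested.

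Single cytosines were also called by an exact binomial test of their reads against the false-positive rate of the method, one-sided, with Benjamini-Hochberg adjustment over all cytosines of the genome with at least 5 reads. In PS 192 of 25021 Vmn2r cytosines (0.767%) and 18 of 4203 Vmn1r cytosines (0.428%) were called, where 0.0791% of all 36570167 tested cytosines were called. The called share of Olfr cytosines was 0.0580%. In CAPS 305 of 25085 Vmn2r cytosines (1.22%) and 36 of 4198 Vmn1r cytosines (0.858%) were called, where 1.64% of all 36060655 were, so that both families lay below the background in CAPS and above it in PS over all their cytosines. Vmn2r exons (1.92%, 46 of 2393) and upstream regions (1.70%, 16 of 941) were not below it in CAPS. Of the 210 member cytosines called in PS 165 were also called in CAPS (78.6%), and these were 48.4% of the 341 called in CAPS. Over all chromosomes 20213 cytosines were called in both, which were 69.9% of the 28928 called in PS and 3.42% of the 591604 called in CAPS. At over 26 TAPSβ reads 9.71% of the Vmn2r cytosines tested were called in PS and 11.2% in CAPS, against 0.407 and 0.813% of the rest. In Vmn1r the shares were 3.57% (3 of 84) and 3.61% (3 of 83), against 0.364 and 0.802%. Leaving out such cytosines also lowered the called share of the genome, from 0.0791 to 0.0548% in PS and from 1.64 to 1.61% in CAPS. In counts, 28928 of 36570167 became 19897 of 36329753 in PS, and 591604 of 36060655 became 576938 of 35822063 in CAPS. Cytosines past the limit were thus called more often than the rest over the whole genome too, so the rise was not particular to the members. A deeply read cytosine is also more easily called.

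The families share 6 chromosomes, and the comparison was repeated within each. Vmn1r had the lower CAPS level on 6 of 6 chromosomes (5 of 6 without cytosines over 26 TAPSβ reads, with chromosome 13 at 2.60 against 2.46%). The PS level was lower in Vmn1r on 4 of 6, with no modified PS read in either family on chromosome 2. On chromosome 6 it was higher in Vmn1r, 0.310% (0.212 to 0.437) against 0.137% (0.0913 to 0.199). The TAPSβ level was lower in Vmn1r on 3 of 6. Chromosome 2 holds 1 gene of each family, with 4 modified CAPS reads in both, and the only Vmn2r gene on chromosome 4 is Vmn2r-ps19. On chromosome 7, which holds the most members, the levels were 57.3 and 60.8% in TAPSβ, 1.87 and 2.07% in CAPS and 0.567 and 0.781% in PS, in Vmn1r and Vmn2r, with 48.9 and 75.04% of cytosines listed. The listed share was lower in Vmn1r on 2 of 6 chromosomes and the TAPSβ reads per cytosine on 3 of 6. On chromosomes 6, 13 and 17 the listed share was higher in Vmn1r, with 95.95 against 68.1%, 96.8 against 65.0% and 99.6 against 91.6%. Pseudogenes and protein-coding members had similar levels in Vmn2r, 62.8 and 63.6% in TAPSβ and 2.06 and 2.07% in CAPS. In Vmn1r pseudogenes had 65.8% in TAPSβ against 59.3% in protein-coding genes, a group that includes Vmn1r90.

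Other genes of the vomeronasal organ were read for context from a list of 21, of which 20 were found by name. The signalling genes had mostly unmethylated upstream regions, with 0.727% TAPSβ for the channel gene Trpc2, 3.90% for Gnai2 and 11.9% for Gng8, but 43.2% for Gnao1. The transcription factor gene Bcl11b had 0.855%. Another 14 genes had a TAPSβ level of at least 50% upstream. The 4 formyl peptide receptor genes Fpr-rs3, Fpr-rs4, Fpr-rs6 and Fpr-rs7 had 58.4 to 78.6%, and the 8 H2-M genes, nonclassical MHC genes expressed with Vmn2r receptors, had 58.5 to 76.0%. Omp, a marker of mature olfactory and vomeronasal neurons, had 59.8%, and Calr4, a chaperone gene of the organ, had 74.8%.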

How the data were processed

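The deposited tables give, for every CpG cytosine of each strand, counts of reads that showed T (modified) or C (unmodified) and the modified fraction. The authors trimmed reads with Trim Galore 0.3.1, mapped them to mm9 with BWA mem 0.7.12, removed duplicates with Picard 2.3.0, left out reads with mapping quality below 10 and called bases with asTair. The study later left out sites in regions prone to mapping artefacts and at known E14 variants, for which no list was used here.

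Here counts were summed over exons, introns and 1 kb upstream of the GENCODE M1 genes, each cytosine once, with exon before intron before upstream. The deposited fraction was only compared with the counts and matched within 0.0005. Exact binomial and ratio intervals (95%) came from scipy 1.17.1. Cytosines were called against rates of 0.0072 (CAPS) and 0.0027 (PS), the false-positive rates of the methods, at an adjusted p under 0.05; the procedure was tested on simulated data. No test between families or libraries was made, since each method has 1 library. Windows of 31 and 101 bases were counted in the reference on both strands. Exon sequences, in place of whole genes, were compared with blastn 2.17.0, taking the alignment of highest identity over at least 50% of the exon bases. Named genes were the extremes of each measure among genes with at least 50 reads in each library, the genes with fewest reads, and receptors of known role. Members and lists were chosen with earlier results of these data known. Alternatives changed the read minimum, the coverage limit, the genes and the summary, and 5.73% of Vmn2r and 1.23% of Vmn1r cytosines also lie in another gene. A gene of the list of other vomeronasal genes is not reported here.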

Additional observations from a re-analysis of the deposited data

How the results depend on the processing

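No paired analysis was possible because each method has 1 library, and without replicates the spread between libraries is unknown. Of 58 alternative values 20 stayed within the counting interval of the reported value, 33 moved beyond it and 5 changed side of 1, and except where stated the cause was not tested. The Vmn1r to Vmn2r ratio of the TAPSβ level was 0.966 at cytosines with at least 10 reads, 0.937 without those over 26 TAPSβ reads, 0.933 in protein-coding genes, 0.980 on the chromosomes with both families and 1.02 as a ratio of medians over genes. In alternatives chosen after seeing the data it was 1.00 without Vmn1r90, Vmn1r112 and Vmn1r139 and 0.929 without the clusters listed at under 50%. The CAPS ratio was 1.02 without cytosines over 26 reads. The PS ratio was 0.979 without these, 0.897 without cytosines at a PS level of 20% or more, which are chosen by PS itself, and 0 for medians over genes, since the Vmn1r median is 0. The coverage ratio was 0.758 without cytosines over 26 reads, 0.695 in protein-coding genes, 0.752 on the chromosomes with both families and 1.10 for medians, which leave out genes with few reads by construction. In the alternatives chosen later it was 1.00, 1.13 and, per listed cytosine, 0.980. The share of modified reads past the limit moved with the limit. Over 20 TAPSβ reads it was 20.4% (CAPS) and 36.7% (PS) in Vmn1r and 29.1 and 57.0% in Vmn2r, and over 52 reads 0 and 0% and 2.83 and 6.49%. Without cytosines at a PS level of 20% or more it was 2.91 and 9.35% in Vmn1r and 10.301 and 22.4% in Vmn2r, and without the clusters listed at under 50%, again chosen later, 1.12 and 2.34% and 13.8 and 40.6%. Of member cytosines with at least 10 reads 1.64% were called in CAPS and 1.18% in PS, against 1.964 and 0.121% of all such cytosines of the genome, and without those over 26 TAPSβ reads 0.811 and 0.401%, against 1.61 and 0.0548%.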
